A study of Homo sapiens with 3 samples.

Results

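Histone mRNAs were followed through 3 RNA pull-downs from lysate of the established human cell line J82, which comes from a bladder cancer. The group holds 85 protein-coding genes of GENCODE 29, of 52992 genes to which the deposited tables could be joined. The 71 replication-dependent members have symbols that start with HIST1H, HIST2H, HIST3H or HIST4H. The 14 variant members have symbols that start with H2AF or H3F3, or are H1F0 and H1FX. Transcripts of 45 replication-dependent genes and of 12 variant genes were found in the tables, 62 transcripts for each class. The other 26 replication-dependent and 2 variant genes were not analysed here. A gene counted as measured with a mean of at least 10 estimated counts over the 3 libraries, which held for 13 replication-dependent and 10 variant genes.

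The libraries hold the RNA recovered with the Ala mutant of ZFP36L1 fused to glutathione S-transferase (GST), with wild-type ZFP36L1 fused to GST, and with GST alone, the tag that all 3 proteins share. The labels do not give the residues replaced by alanine. All lysates came from J82 cells grown to 90% confluence. There was 1 library per protein, so no difference could be tested against replicates and no p-value is given. Intervals are exact Clopper-Pearson 95% intervals and cover counting error only. The value of a gene in a library is its share of the sequenced RNA, so a lower value can also stand for more RNA of other genes. The table of the GST library carries another run code in its name than the tables of both fusion proteins, so a difference between runs and a difference from GST cannot be told apart. The 3 comparisons share libraries and are therefore not independent of each other.

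Replication-dependent histone mRNAs are made in S phase and encode the bulk of the histones that package new DNA. They are the only animal mRNAs known to end without a poly(A) tail: a conserved stem-loop at the 3′ end is bound by the stem-loop binding protein SLBP, which directs processing, translation and decay. Most variant histone genes are expressed through the cell cycle and give ordinary polyadenylated mRNAs. H2AFX stands apart in that a transcript of it holds a histone stem-loop, printed below. Some replication-dependent genes, HIST1H2BD, HIST2H2BE and HIST1H1C among them, are also known to give polyadenylated mRNAs whose ends lie past the stem-loop. ZFP36L1 belongs to a family of zinc finger proteins that bind UAUUUAU in AU-rich 3′ untranslated regions (3′ UTRs) and recruit the enzymes that degrade the mRNA. How the libraries were selected, by poly(A) or by removal of ribosomal RNA, is not given in the sources used here, and it bears on every level of an mRNA without a poly(A) tail.

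The histone stem-loop was searched for on the transcript strand as a stretch of 16 letters that opens with GG, closes with CC and has fixed T, T and A letters in and beside its loop. It lay in the last 100 bases of 11 of 82 GENCODE transcripts of replication-dependent genes (13.4%) and of 336 of 82982 other protein-coding transcripts (0.405%). Of the others, 23 (0.0277%) could form all 6 base pairs of the stem. Some GENCODE models stop with the coding sequence and hold no 3′ UTR to search. That of HIST1H1C has 642 bases against 732 in the deposited data, and that of HIST2H2AC 390 against 437. Some run on past the deposited length, as HIST1H2BF does with 1196 bases against 497. The 13.4% is therefore a share of annotated models and does not tell how many of the mRNAs carry the stem-loop. Sequences are those of GENCODE 29 transcripts on GRCh38, 5′ to 3′ as DNA letters, with the stem-loop in capitals. The first set shows stem-loops that stand close to the end of the transcript: 35 bases from it in HIST2H2AA3, 6 in HIST1H4J, and 39 in both HIST1H2AI and the shorter transcript of HIST1H2BD.
HIST2H2AA3, chr1:149842218-149842243, minus strand: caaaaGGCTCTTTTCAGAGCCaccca
HIST1H4J, chr6:27824454-27824479, plus strand: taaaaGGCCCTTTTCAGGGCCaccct
HIST1H2AI, chr6:27808642-27808667, plus strand: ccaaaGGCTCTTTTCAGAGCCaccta
HIST1H2BD, chr6:26158582-26158607, plus strand: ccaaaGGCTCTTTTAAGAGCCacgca
The second set shows stem-loops inside transcripts that go on past them: for a further 1128 bases in the longer HIST1H2AC transcript, 1729 in HIST2H2BE and 821 in a transcript of the variant gene H2AFX. This HIST1H2AC transcript, of 1668 bases, had 43, 29 and 0 counts in the Ala, wild-type and GST libraries. The 1462-base HIST1H2AC transcript had 56, 442 and 111, and no stem-loop with all 6 base pairs was found in it.
HIST1H2AC, chr6:26124664-26124689, plus strand: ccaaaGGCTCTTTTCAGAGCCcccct
HIST2H2BE, chr1:149886183-149886208, minus strand: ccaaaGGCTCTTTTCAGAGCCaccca
H2AFX, chr11:119094893-119094918, minus strand: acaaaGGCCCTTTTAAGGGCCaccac
The third set shows UAUUUAU, in capitals and with T for U, in 3′ UTRs of variant genes, shown because it is the sequence ZFP36L1 is known to bind: 2 sites in the 2705-base transcript of H3F3B, 1 in the 3804-base transcript of H2AFV and 2 in the 3107-base transcript of H2AFJ.
H3F3B first, chr17:75777828-75777854, minus strand: tgggggatttTATTTATaagggctcta
H3F3B second, chr17:75777318-75777344, minus strand: aggaacctttTATTTATaaagatactg
H2AFV, chr7:44829879-44829905, minus strand: taaaatattcTATTTATgtttgacctt
H2AFJ first, chr12:14776011-14776037, plus strand: ttgacactccTATTTATttcatcctca
H2AFJ second, chr12:14776212-14776238, plus strand: ttgtccccagTATTTATtgaacagctg
A match is a description of the letters and does not show that a protein binds there.

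Among the matched genes, variant histones had more counts than replication-dependent ones in every library. Counts of the 26 replication-dependent genes that were not matched are missing, and the selection of the libraries is not known. The counts therefore do not tell which class of mRNA was more abundant. All matched variant genes together had 50839 estimated counts in the Ala library, 67393 in the wild-type library and 52356 in the GST library. This was 0.277%, 0.353% and 0.285% of the counts joined to genes, and the wild-type interval (0.350 to 0.356%) lay above those of the Ala library (0.275 to 0.279%) and the GST library (0.282 to 0.287%). Replication-dependent genes together had 1131 counts in the Ala library, 892 in the wild-type library and 930 in the GST library, or 0.00616% (0.00581 to 0.00653%), 0.00467% (0.00437 to 0.00499%) and 0.00506% (0.00474 to 0.00539%). The wild-type and GST intervals of this class overlapped, and the Ala interval lay above both. On the TPM scale, which divides by transcript length, the class summed to 93.3 in the Ala library, 40.0 in the wild-type library and 70.6 in the GST library, while the variant class summed to 1556, 2030 and 1803. The totals hide members that stood apart in opposite directions, as the plot of levels by library shows.

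**Figure D1:**
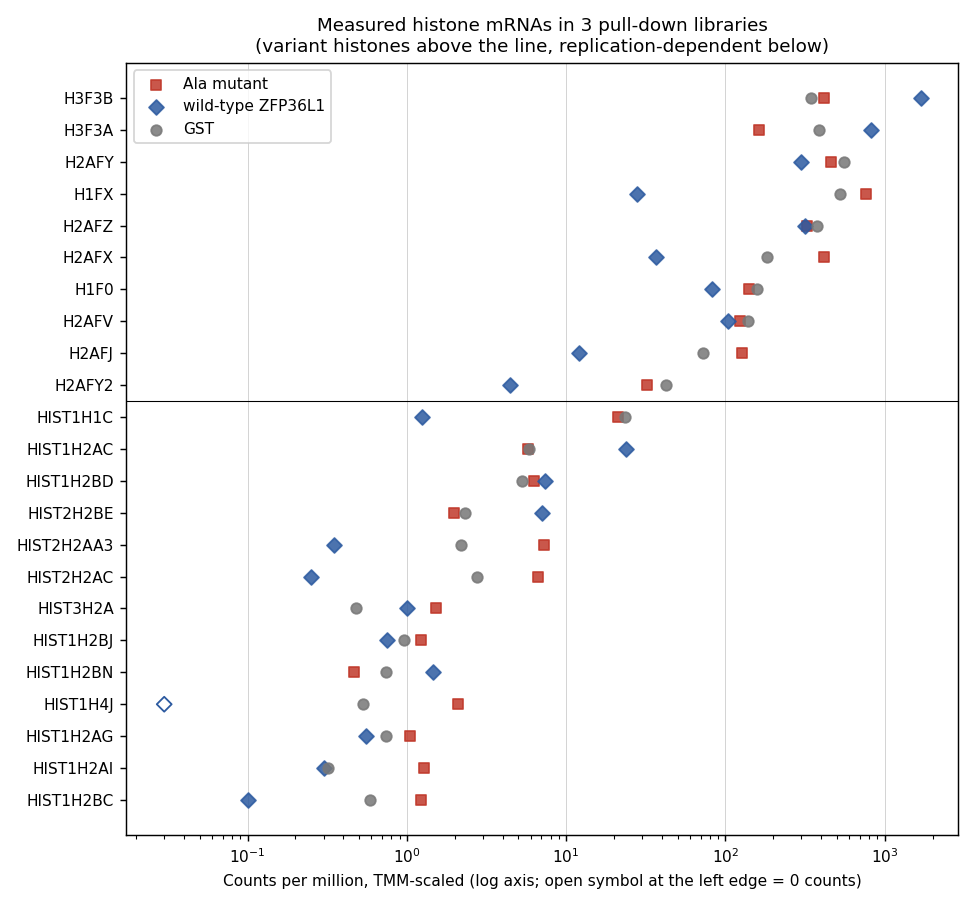
Level of each measured histone mRNA as TMM-scaled CPM on a log axis, with 1 point per library (squares Ala mutant, diamonds wild-type ZFP36L1, circles GST) and variant genes above the line. The wild-type diamond is far left of the other points for H1FX, H2AFX, H2AFJ, H2AFY2, HIST1H1C, HIST2H2AA3 and HIST2H2AC, far right for H3F3B, H3F3A, HIST1H2AC and HIST2H2BE, and at 0 counts for HIST1H4J (open symbol).

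In the wild-type ZFP36L1 library, set against GST, 2 measured replication-dependent histone mRNAs were higher (HIST1H2AC and HIST2H2BE) and 5 were lower (HIST1H1C, HIST2H2AA3, HIST2H2AC, HIST1H4J and HIST1H2BC). Higher and lower here mean at least 2-fold, with 1 outside the counting interval of the ratio. Over all 14082 genes tested, 25.5% were called higher and 34.2% lower, so 2 and 5 of 13 (15.4% and 38.5%) are near the shares of all genes. The median log2 ratio of the 13 was -0.34, against -0.04 for all genes.

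Among linker histones, which sit on the DNA between nucleosomes, HIST1H1C (chr6:26055787-26056428) was the only measured replication-dependent gene. It had 364 counts in the Ala library, 25 in the wild-type library and 441 in the GST library. The wild-type library was low and the other libraries were near each other. Wild type gave an 18.3-fold lower value than GST (log2 -4.20, interval -4.87 to -3.64), and under 1% of its 31-mers (0.82%) occur in transcripts of other genes.

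The core histone H2A genes went both ways. HIST1H2AC (chr6:26124145-26139116) had 99 counts in the Ala library, 471 in the wild-type library and 111 in the GST library, which made it 3.99-fold higher with wild type than with GST (log2 1.998, 1.70 to 2.31). HIST2H2AA3 (chr1:149842188-149842736) had 125, 7 and 41 counts in the Ala, wild-type and GST libraries (wild type over GST log2 -2.55, -4.03 to -1.46), and HIST2H2AC (chr1:149886975-149887364) had 114, 5 and 52 (log2 -3.34, -5.14 to -2.15). For both, the wild-type library was lowest and the Ala library highest. All 31-mers of HIST2H2AA3 and 50.6% of those of HIST2H2AC occur in transcripts of other genes, so their counts may hold reads of near-identical copies. HIST3H2A had 26, 20 and 9 counts in the Ala, wild-type and GST libraries, HIST1H2AG 18, 11 and 14, and HIST1H2AI 22, 6 and 6. None of these 3 was called between wild type and GST, at log2 ratios of 1.03 (-0.13 to 2.39), -0.42 and -0.08.

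Of the H2B genes, HIST2H2BE (chr1:149884459-149886652) had 34 counts in the Ala library, 141 in the wild-type library and 44 in the GST library. Only the wild-type library was high, 3.004-fold above GST (log2 1.59, 1.10 to 2.12). HIST1H2BD had 108, 148 and 99 counts in the Ala, wild-type and GST libraries, at a log2 ratio of wild type over GST of 0.50 (0.12 to 0.88) that was not called. HIST1H2BJ with 21, 15 and 18 counts and HIST1H2BN with 8, 29 and 14 were not called either, at -0.34 and 0.94. HIST1H2BC had 21 counts in the Ala library, 2 in the wild-type library and 11 in the GST library, a log2 ratio of -2.28 whose interval runs from -5.76 to -0.35.

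The only measured H4 gene, HIST1H4J (chr6:27824108-27824480), had 36 counts in the Ala library, 0 in the wild-type library and 10 in the GST library. With the wild-type library set to a floor of 3 counts it was 3.53-fold lower with wild type than with GST. The counting interval of the log2 ratio reaches up to -1.25, so the difference can be smaller than this. Of its 31-mers, 82.2% occur in other genes. None of the matched replication-dependent H3 genes was measured, and other H3 genes were not matched. The 32 matched members under the minimum, of which 11 had no count in any library, summed to 135 counts in the Ala library, 12 in the wild-type library and 60 in the GST library, and the largest mean among them was 6.33.

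**Figure D2:**
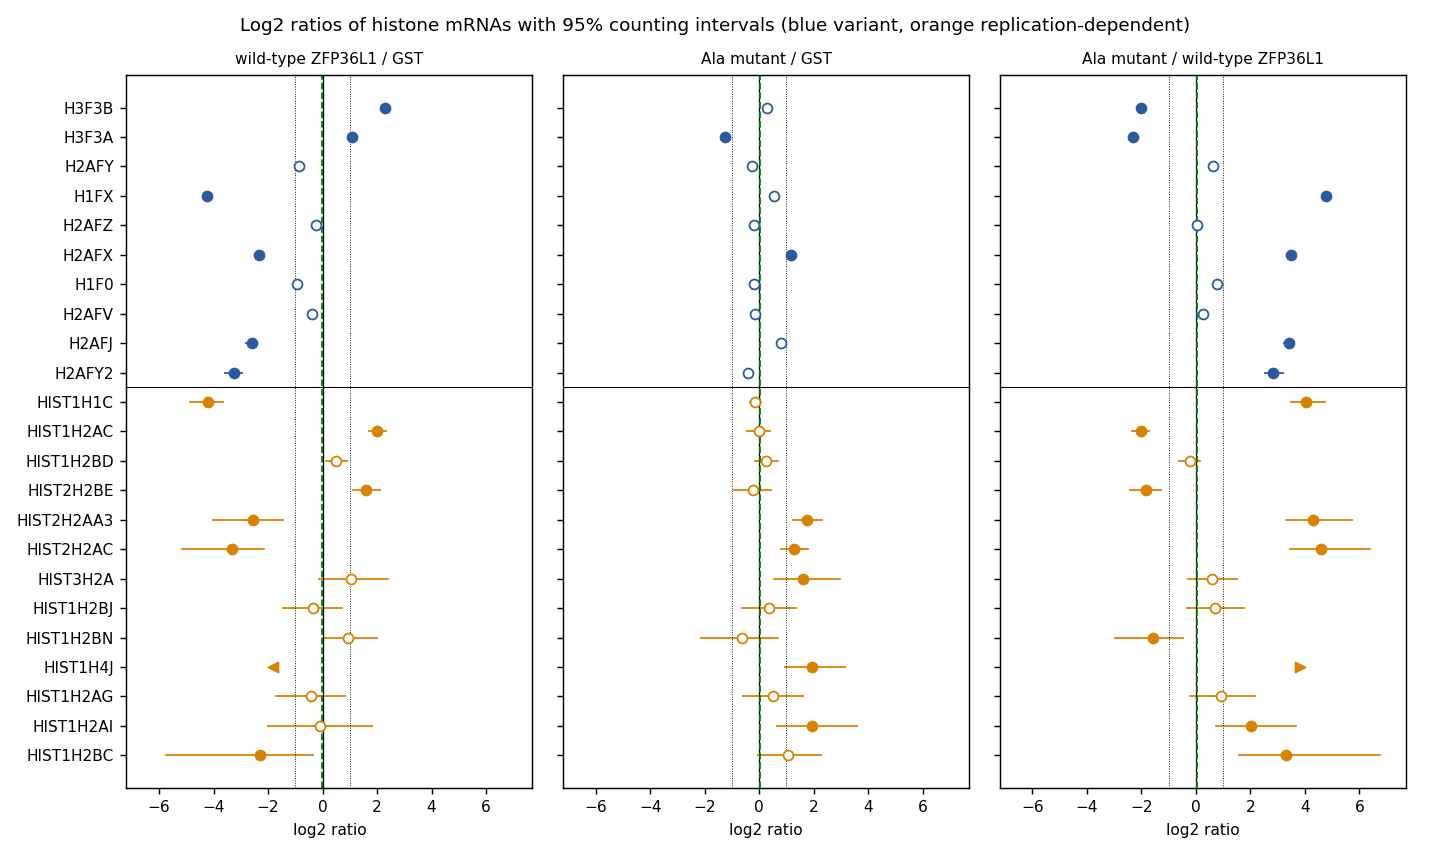
Log2 ratio of each measured histone mRNA in the 3 comparisons with 95% counting intervals. Filled symbols are called, dotted lines mark 2-fold and the dashed line the median of all genes. Triangles show HIST1H4J (wild type at 0) at the floor of 3 counts, without its interval. Most points lie within 2-fold in the Ala mutant over GST panel, while HIST1H1C reaches -4.20 and H3F3B 2.29 in the wild type over GST panel.

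The transcripts behind these genes fell into forms that differed between the libraries. A replication-dependent transcript was called compact with at most 200 bases outside the coding sequence and extended with more, a limit chosen after the values had been seen. The 38 compact transcripts summed to 48.1 TMM-scaled CPM in the Ala library (823 counts), 3.41 in the wild-type library (68 counts) and 32.2 in the GST library. The compact sum was 9.39-fold lower with wild type than with GST (log2 -3.23, -3.62 to -2.88). The 17 extended transcripts summed to 17.4 CPM in the Ala library (298 counts), 41.1 in the wild-type library (821 counts) and 16.8 in the GST library (316 counts). The extended sum was 2.45-fold higher with wild type than with GST (log2 1.29, 1.11 to 1.49), and the Ala and GST sums differed by less than counting error (log2 0.06, -0.18 to 0.29). One gene leads each sum. Without HIST1H1C the compact forms had 459 counts in the Ala library, 43 in the wild-type library and 166 in the GST library (wild type over GST -2.02, -2.55 to -1.54). Without HIST1H2AC the extended forms had 198, 350 and 205 (0.69, 0.44 to 0.95). The forms also differed in GC content. Leading transcripts of HIST1H1C, HIST2H2AA3 and HIST2H2AC, all compact, have 57.5%, 61.7% and 62.8% GC. Those of HIST1H2AC and HIST2H2BE, both extended, have 41.7% and 48.0%. Of all genes with 55.6 to 77.6% GC, 72.3% were called lower with wild type than with GST, at a median of -2.39. Whether the ratios go with form or with GC content was not tested.

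**Figure D3:**
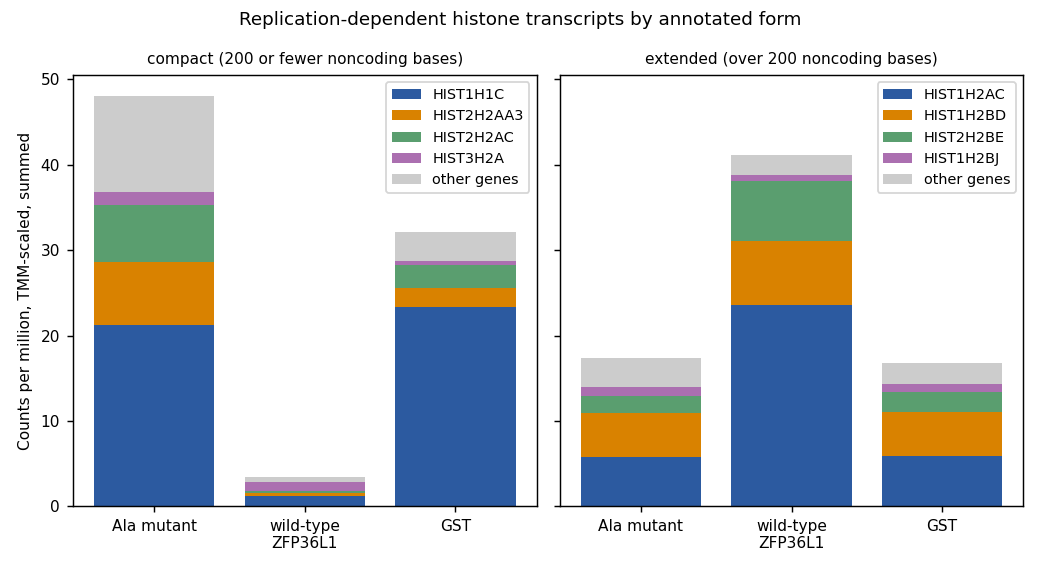
Summed TMM-scaled CPM of compact (left) and extended (right) replication-dependent transcripts in the Ala, wild-type and GST libraries, stacked by gene. The compact bar is lowest for wild-type ZFP36L1 (3.41 CPM, against 32.2 for GST) and the extended bar is highest for it (41.1 CPM, against 16.8 for GST).

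By GENCODE sequence, 9 transcripts had the stem-loop in their last 100 bases, such as those of HIST2H2AA3, HIST1H4J and HIST1H2AI printed above. They summed to 231 counts in the Ala library, 13 in the wild-type library and 71 in the GST library (wild type over GST log2 -2.49, -3.51 to -1.67). This is near the median of -2.39 for all genes with 55.6 to 77.6% GC. The named transcripts, with 59.6 to 62.2% GC, lie in that range. HIST1H2BD has both forms in the tables. Its compact transcript, which ends shortly after the stem-loop, had 20, 0 and 2 counts in the Ala, wild-type and GST libraries. Its extended transcript, in which no stem-loop with all 6 base pairs was found, had 88, 148 and 98. HIST1H2BN had 1, 0 and 4 counts in its compact transcript and 8, 29 and 11 in the extended ones. In both genes the wild-type counts were all in extended transcripts. HIST1H2BC went the other way, with 13, 2 and 0 counts in its compact transcript and 8, 0 and 11 in its extended one. The split of reads between overlapping transcripts of 1 gene is an estimate of kallisto, and counts this low bear no comparison between genes.

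Variant histone mRNAs also went both ways in the wild-type library, set against GST. The H3.3 genes H3F3B and H3F3A were higher, and H1FX, H2AFX, H2AFJ and H2AFY2 were lower. These are 2 higher and 4 lower of 10, against 25.5% and 34.2% of all genes, again near the shares of all genes, with a median of -0.92.

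H3F3B and H3F3A encode the same protein, the H3.3 variant that is placed on chromatin outside replication. H3F3B (chr17:75776434-75785893) had 7098 counts in the Ala library, 33507 in the wild-type library and 6462 in the GST library. It was 4.90-fold higher with wild type than with GST (log2 2.29, 2.25 to 2.33). H3F3A (chr1:226061851-226072001) had 2786 counts in the Ala library, 16284 in the wild-type library and 7318 in the GST library, a 2.10-fold difference of wild type from GST (log2 1.07, 1.03 to 1.11). On the TPM scale, H3F3A stood at 113, 793 and 326 and H3F3B at 106, 589 and 104 in the Ala, wild-type and GST libraries, the 2 highest TPM levels of the group in the wild-type library. The 8 pseudogenes of this pair in the tables had 179, 26 and 17 counts.

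Of the H2A variants, H2AFX (chr11:119093854-119095467), whose protein is phosphorylated at DNA breaks, had 7106 counts in the Ala library, 733 in the wild-type library and 3452 in the GST library (wild type over GST log2 -2.32, -2.43 to -2.20). H2AFJ (chr12:14774383-14778002) had 2186, 239 and 1370 counts (log2 -2.60, -2.81 to -2.40). H2AFZ, the H2A.Z variant found at promoters, had 5588, 6303 and 7112 counts, and its paralog H2AFV had 2121, 2076 and 2597. Neither was called, at log2 ratios of wild type over GST of -0.26 and -0.41, but on the deposited TPM scale H2AFV was called lower with wild type than with GST (-1.81) and higher with the Ala mutant than with wild type (1.43).

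The macroH2A genes, whose proteins carry a large macro domain, were both below GST in the wild-type library, though only 1 was called. H2AFY had 7875 counts in the Ala library, 5968 in the wild-type library and 10393 in the GST library (log2 -0.88, -0.93 to -0.84, not called). H2AFY2 (chr10:70052796-70112280) had 549, 89 and 804 counts, 9.52-fold lower with wild type than with GST (log2 -3.25, -3.59 to -2.94).

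The linker variants were H1FX (chr3:129314771-129316277), which had 13125 counts in the Ala library, 554 in the wild-type library and 9862 in the GST library, and H1F0 with 2397, 1634 and 2983. H1FX was 18.8-fold lower with wild type than with GST (log2 -4.23, -4.36 to -4.11), close to the value of HIST1H1C. H1F0, the linker histone of cells that have stopped dividing, was not called at -0.95 (-1.04 to -0.86). H1FX had the highest TPM level of the group in the Ala library (365) and a low one in the wild-type library (18.5), with 302 in the GST library.

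Gene sums of the variants covered differences between their transcripts. H2AFV, whose gene counts were close in all libraries, had 708 counts of its 3804-base transcript in the Ala library, 1852 in the wild-type library and 997 in the GST library, which was 33.4%, 89.2% and 38.4% of the gene. This is the H2AFV transcript that holds the UAUUUAU site printed above, and it stood at a log2 ratio of wild type over GST of 0.81 (0.70 to 0.92). Its 596-base transcript had 1012, 208 and 1381 counts (wild type over GST log2 -2.81), and its 687-base transcript had 145, 0 and 168. Because the short transcripts weigh more per count, the TPM of H2AFV was 127 in the Ala library, 46.6 in the wild-type library and 165 in the GST library.

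In H2AFJ the transcripts also differed, though not in order of their deposited length. Its 785-base transcript, annotated for nonsense-mediated decay, had 1879 counts in the Ala library, 65 in the wild-type library and 1153 in the GST library (wild type over GST log2 -4.22, -4.61 to -3.87). The 3107-base transcript with 2 UAUUUAU sites had 6, 104 and 0 counts, and the longest, of 3665 bases, had 301, 70 and 217 (wild type over GST log2 -1.71, -2.12 to -1.32). The 3107-base transcript took 43.4% of the gene in the wild-type library and 0.26% in the Ala library.

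H2AFZ had 3713, 6226 and 6070 counts of its 979-base transcript in the Ala, wild-type and GST libraries, and 1807, 0 and 978 of a 726-base transcript without annotated coding sequence. The 979-base transcript made up 98.8% of the gene in the wild-type library, against 85.4% in the GST library. H2AFY had 2676, 5736 and 6728 counts of a 1744-base transcript and 3756, 0 and 1470 of a 1772-base one, so that 96.1% of its wild-type counts lay in the 1744-base transcript, against 64.7% in the GST library. The H3.3 genes were each led by 1 transcript in all libraries: the 2705-base one of H3F3B held at least 99.5% of its gene and the 1088-base one of H3F3A at least 97.7%.

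Transcripts with at least 20 counts in the wild-type and GST libraries together were split at 1000 bases, a limit chosen after the values had been seen. All 7 shorter variant transcripts were below a ratio of 1 (median log2 of wild type over GST -3.20). This median is the value of the 752-base H2AFV transcript at the floor of 3 counts, as it had 0 counts with wild type and 26 with GST. The 979-base H2AFZ transcript, at -0.05 (-0.10 to 0.006), was within counting error of 1. No share over all transcripts of these lengths was set beside these counts. Of the 18 longer variant transcripts, 6 were above and 12 below (median -1.33). Of the replication-dependent transcripts, 3 of 6 shorter ones and 4 of 5 longer ones were above a ratio of 1, with medians of -1.10 and 1.59. The transcripts of 1 gene share reads and are not independent points.

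**Figure D4:**
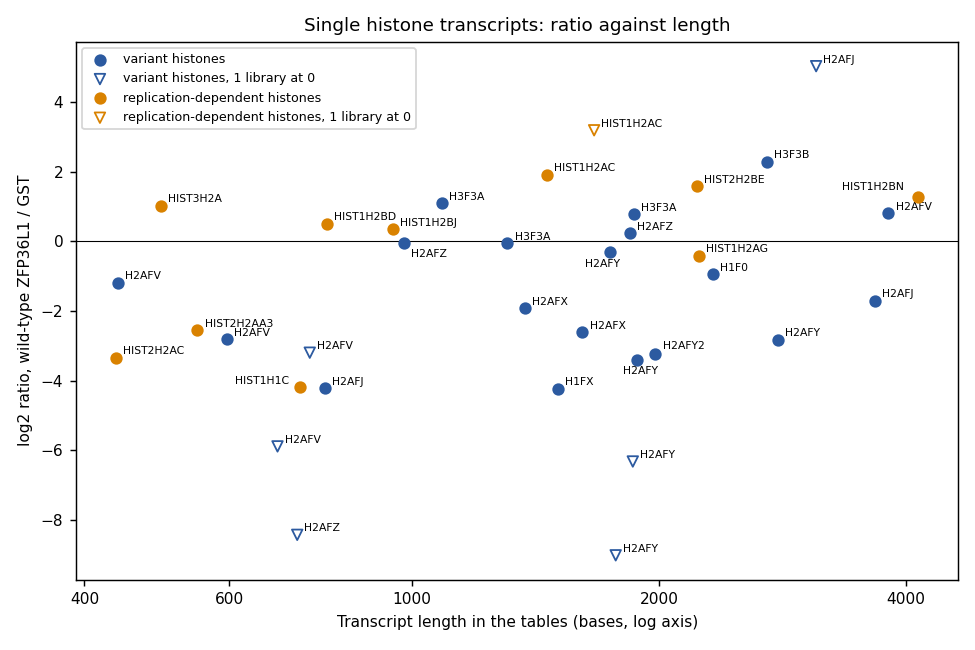
Log2 ratio of wild-type ZFP36L1 over GST for each histone transcript with at least 20 counts in both libraries together, against its length on a log axis; triangles are bounds where 1 library had 0 counts. All 7 variant transcripts under 1000 bases lie below 0, the 979-base one of H2AFZ only just (-0.05). H3F3B at 2705 bases and HIST1H2AC at 1462 bases lie well above it.

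The Ala mutant library was nearer to GST. Of 13 replication-dependent histone mRNAs, 5 were higher with the Ala mutant than with GST (HIST2H2AA3, HIST2H2AC, HIST3H2A, HIST1H4J and HIST1H2AI) and 0 lower, with a median log2 ratio of 0.49. This is 38.5% and 0% of the members, against 9.00% and 5.13% of all genes, whose median was 0.04. The 5 members called higher have 57.7 to 62.8% GC, and of all genes with 55.6 to 77.6% GC, 23.1% were higher with the Ala mutant than with GST. With a fit on GC content and length over all genes removed, HIST2H2AA3 (0.99), HIST2H2AC (0.45) and HIST3H2A (1.04) were no longer called, which leaves 2 of 13, and HIST2H2AC was not called on the TPM scale either (0.95). These 2 are HIST1H4J (36, 0 and 10 counts in the Ala, wild-type and GST libraries) and HIST1H2AI (22, 6 and 6). Both reached the minimum mean only through the Ala library. The minimum thus favoured calling them higher, and the members' share cannot be weighed against the 9.00% of all genes. These 5 are short transcripts with 22 to 125 counts in the Ala library, and 4 of them have over 50% of their 31-mers in other genes. HIST2H2AA3 was 3.33-fold higher with the Ala mutant than with GST (log2 1.74, 1.23 to 2.29) and HIST2H2AC 2.40-fold higher (1.27, 0.79 to 1.78). HIST1H4J stood at 1.94 (0.95 to 3.16), HIST1H2AI at 1.93 (0.67 to 3.61) and HIST3H2A at 1.62 (0.53 to 2.95). The other 8 members were not called. Among them, HIST1H1C stood at -0.14 (-0.34 to 0.07), HIST1H2AC at -0.02 (-0.43 to 0.38) and HIST2H2BE at -0.23 (-0.92 to 0.45). The compact forms as a whole were at 0.58 (0.43 to 0.73) and, without HIST1H1C, at 1.61 (1.35 to 1.87).

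Of the 10 variant genes, H2AFX was higher with the Ala mutant than with GST (2.27-fold, log2 1.18, 1.12 to 1.24) and H3F3A lower (2.38-fold, log2 -1.25, -1.32 to -1.19). This is 10% higher and 10% lower, against 9.00% and 5.13% of all genes. The call of H2AFX ended when the libraries were scaled without mitochondrial and the most abundant genes (0.97). The other 8 lay between -0.41 (H2AFY2) and 0.81 (H2AFJ), and the median was -0.16. The H3.3 genes stood on different sides of GST, since H3F3B had a log2 ratio of 0.28 (0.23 to 0.32).

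Set against each other, the Ala mutant and wild-type libraries differed by at least 2-fold for most histone mRNAs, as they did for most genes. Of 13 replication-dependent genes, 6 were higher with the Ala mutant than with wild type (HIST1H1C, HIST2H2AA3, HIST2H2AC, HIST1H4J, HIST1H2AI and HIST1H2BC) and 3 were lower (HIST1H2AC, HIST2H2BE and HIST1H2BN). All genes gave 36.1% higher and 30.1% lower, so the members' 46.2% and 23.1% are not far from the background, and their median was 0.91, against 0.04. Of the members called higher, HIST1H4J, HIST1H2AI and HIST1H2BC reached the minimum mean only through the Ala library, which favours such a call. HIST1H1C was 16.7-fold higher with the Ala mutant than with wild type (log2 4.06, 3.50 to 4.73) and HIST2H2AC 24.3-fold higher (4.60, 3.47 to 6.38). HIST1H4J was 14.0-fold higher with the wild-type library at the floor of 3 counts, and its log2 interval starts at 3.43. HIST1H2AC was 4.06-fold lower with the Ala mutant (-2.02, -2.36 to -1.71) and HIST2H2BE 3.51-fold lower (-1.81, -2.41 to -1.28). The compact forms stood at 3.81 (3.46 to 4.20) and the extended forms at -1.24 (-1.44 to -1.05).

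Of the variant genes, H1FX, H2AFX, H2AFJ and H2AFY2 were higher with the Ala mutant than with wild type and H3F3A and H3F3B were lower. These are 4 and 2 of 10 (40% and 20%), against 36.1% and 30.1% of all genes, with a median of 0.70. H1FX was 27.6-fold higher with the Ala mutant (log2 4.79, 4.67 to 4.91) and H2AFX 11.3-fold higher (3.50, 3.39 to 3.61). H3F3A was 5.01-fold lower with the Ala mutant (-2.32, -2.38 to -2.27) and H3F3B 4.05-fold lower (-2.02, -2.05 to -1.98). After removal of the fit on GC content and length, H2AFX stood at 0.35 and H3F3B at -0.80 and neither was called, while H2AFY was called at 1.57. The 6 are the variant genes that were also called between wild type and GST, in comparisons that share the wild-type library. H2AFZ had a log2 ratio of Ala mutant over wild type of 0.05 (-0.0032 to 0.10), H2AFV of 0.25, H2AFY of 0.62 and H1F0 of 0.78, none of them called.

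GC content moved with these ratios. With all genes ranked by GC content into 4 bins of near equal size, the median log2 ratio of wild type over GST was 0.97 in the bin with the least GC, 0.50 and -0.65 in the next bins and -2.39 in the bin with the most, where 72.3% of genes were called lower. The median GC content of the leading transcript, the one with the highest mean TPM, was 57.5% for measured replication-dependent genes, 49.9% for measured variant genes and 48.0% for all genes tested, and the median lengths were 549, 1560 and 1938 bases. GC content was that of the GENCODE sequence, which for some members differs in length from the counted transcript. It has 642 bases against 732 for HIST1H1C, 390 against 437 for HIST2H2AC and 895 against 496 for HIST3H2A. Their GC content and their values after the fit below are uncertain by that much sequence. H1FX has 68.6% GC, H2AFX 66.4% and HIST2H2AC 62.8%, all in the richest bin, while HIST1H2AC has 41.7%, H3F3B 43.1% and H3F3A 43.8%.

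With a cubic fit on GC content and length over all genes removed, several members kept a ratio of wild type over GST beyond 2-fold. HIST1H1C stood at -2.42, H2AFY2 at -2.57 and H1FX at -1.74, and on the other side HIST2H2BE stood at 1.41, H3F3B at 1.39 and HIST1H2AC at 1.26. Others were no longer beyond 2-fold: H2AFX stood at 0.06 and HIST2H2AA3 at -0.13, and HIST2H2AC at -0.76 and H3F3A at 0.69 were farther from a ratio of 1. Some moved outward, as HIST3H2A at 2.94 and H2AFY at -1.60 did. The GC content taken for HIST1H2BN was that of its 449-base compact transcript, which held few of its counts, so its value after the fit (3.03) does not describe the transcripts that were counted.

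**Figure D5:**
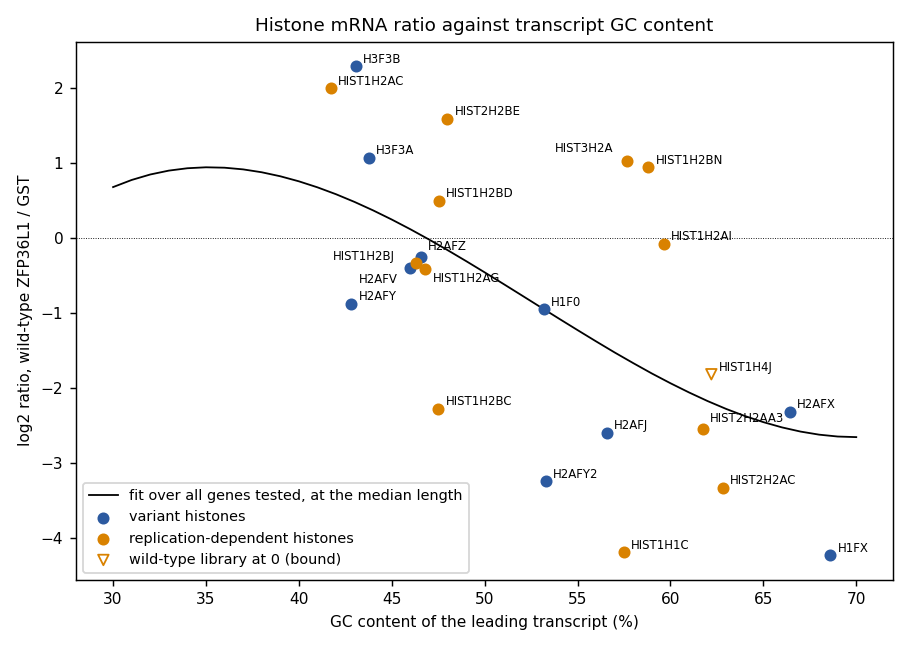
Log2 ratio of wild-type ZFP36L1 over GST against GC content of the leading transcript for each measured histone mRNA, with the fit over all genes tested (line) and HIST1H4J as a bound (triangle). H2AFX and HIST2H2AA3 lie near the line, HIST1H1C, H2AFY2 and H1FX below it, and H3F3B, HIST1H2AC and HIST2H2BE above it.

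UAUUUAU was searched for in the 3′ UTR of the leading protein-coding transcript, which held it in 2968 of 9870 tested genes with a usable 3′ UTR (30.1%). Among measured members it was found in 1 of 7 variant genes, H3F3B, and in 0 of 5 replication-dependent genes. Over all matched transcripts, 4 of the 10 measured variant genes held it in a 3′ UTR: H3F3B, H3F3A, H2AFV and H2AFJ. No share of all genes was found for this wider search, and the 30.1% is not its background. The sites of H2AFJ lie in its 3107-base transcript, annotated for nonsense-mediated decay. H3F3B, with 2 sites in 2161 bases, was the highest histone gene of the wild type over GST comparison, while H3F3A, HIST1H2AC and HIST2H2BE were also called higher. No match was found in the 520-base 3′ UTR of H3F3A or the 1039-base one of HIST1H2AC. The GENCODE transcript of HIST2H2BE held no match in its 3′ UTR either, though it has 2194 bases against 2223 in the deposited data. A minor 1863-base transcript of H3F3A holds 2 sites and had 24 counts in the wild-type library and 13 in the GST library. The GENCODE transcript of HIST3H2A holds a site near its end, but it has 895 bases there and 496 in the tables, so whether the counted transcript reaches the site is not known.

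The mRNAs of proteins that process and degrade histone mRNAs were a mixed group. All 23 genes listed for these roles were measured: wild type over GST gave 4 higher and 9 lower, with 1 higher and 1 lower with the Ala mutant than with GST, and 9 higher and 6 lower with the Ala mutant than with wild type, at medians of -0.21, -0.04 and 0.43. Set beside the shares of all genes, this is 17.4% higher and 39.1% lower against 25.5% and 34.2%, 4.35% and 4.35% against 9.00% and 5.13%, and 39.1% and 26.1% against 36.1% and 30.1%, so the list stayed near the background. SLBP itself had 833 counts in the Ala library, 2238 in the wild-type library and 1420 in the GST library, a log2 ratio of 0.57 for wild type over GST that was not called and of -1.20 (-1.32 to -1.09) for the Ala mutant over wild type that was. The proteins LSM10 and LSM11 belong to the U7 particle that cuts histone precursors, and their mRNAs stood on different sides. LSM10 had 929, 94 and 424 counts in the Ala, wild-type and GST libraries (wild type over GST log2 -2.25), and LSM11 had 110, 363 and 106 (1.69). ERI1, the exonuclease that trims histone mRNA ends, had 347, 944 and 394 counts (1.18), and SYMPK, the scaffold of the cleavage complex, had 2349, 116 and 1427 (-3.70).

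Histone chaperones, which carry histones to and from DNA, were all measured, 20 of 20. With wild type 2 were higher than with GST (NPM1 at 1.78 and MCM2 at 1.49) and 9 lower, with a median of -0.62. With the Ala mutant 0 were higher and 2 lower than with GST (UBN1 and ANP32E), with a median of -0.15. UBN1 had 0, 0 and 32 counts in the Ala, wild-type and GST libraries, and ANP32E had 15, 2 and 441. Both reached the minimum mean only through the GST library, which favours a call of lower. Both are also among the 9 called lower with wild type. The shares called lower than with GST, given below, therefore cannot be weighed against those of all genes. With the Ala mutant 8 were higher and 2 lower than with wild type, with a median of 0.41. The shares were 10% higher and 45% lower for wild type over GST (25.5% and 34.2% of all genes), 0% and 10% for the Ala mutant over GST (9.00% and 5.13%), and 40% and 10% for the Ala mutant over wild type (36.1% and 30.1%). NASP, the chaperone of H3 and H4 reserves, had 4156 counts in the Ala library, 774 in the wild-type library and 6443 in the GST library (wild type over GST log2 -3.14, -3.25 to -3.03). CHAF1B, a subunit of the factor that deposits new H3 and H4 at replication forks, stood at -2.64. Of the H3.3 chaperones, DAXX stood at -2.74, its partner ATRX at 0.93 and HIRA at -0.15, and only DAXX was called.

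The libraries held 19153483 estimated counts for the Ala mutant, 19845386 for wild-type ZFP36L1 and 19137867 for GST. The mitochondrial genome gave 7.53% of the joined counts in the Ala library, 15.5% in the wild-type library and 10.6% in the GST library. The 20 urothelial and epithelial markers, of which 8 were measured, summed to 30515, 4190 and 18339 counts in the Ala, wild-type and GST libraries. The 7 mesenchymal markers, of which 5 were measured, summed to 32527, 7184 and 46812. Both sums hide markers that went both ways. KRT18 leads the first sum (log2 ratio of wild type over GST -4.06) and VIM the second (-4.09). Of the 8 measured urothelial and epithelial markers, 3 were called higher with wild type than with GST, PPARG and FOXA1 among them, and 3 lower. Of the 5 measured mesenchymal markers, 1 was called higher (FN1) and 2 lower. Markers of leukocytes summed to 21, 8 and 14 counts, of erythroid cells to 3, 0 and 1, and of hepatocytes to 4, 0 and 0.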

How the data were processed

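RNA recovered with GST-ZFP36L1-Ala, GST-ZFP36L1 and GST was sequenced on a BGISEQ-500, 1 library each. Per the submitters' processing notes, kallisto, DESeq2 and hg19 were used. The sources used here do not give their versions, their roles or the annotation release. Per the file headers, the deposited tables hold an estimated count and a TPM value for each of 196354 transcripts, which the authors' kallisto run derived from read assignment and effective length. Reads that match several near-identical transcripts are shared among them by estimation, which makes paralogs and isoforms uncertain.

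Transcripts were joined by identifier to GENCODE 29 (GRCh38), which matched 181857 (92.62%, of which 93.17% had the same length). The 14497 others were left out, with 4.20%, 3.79% and 3.92% of the counts in the Ala, wild-type and GST libraries. Estimated counts were summed per gene and rounded, and 14082 genes with a mean of at least 10 were tested. TMM factors (edgeR 4.0.16) were 0.932, 1.05 and 1.03 for the Ala, wild-type and GST libraries, with 0.5 added to each count for log2 ratios. The same rule for ratios, intervals and calls was tried on simulated counts with Poisson error only. Far fewer genes were changed there than were called here between wild type and GST. The trial therefore does not show how the scaling or the intervals behave in that setting. No edgeR or DESeq2 test was run, since there was 1 library per protein. Alternatives were scaling by DESeq2 1.42.0 size factors, by total counts or by totals that leave out mitochondrial genes and the 20 most abundant genes, deposited TPM with a pseudocount of 0.5, no minimum or one of 100 counts, a fit on protein-coding genes only, a prior count of 2, no members sharing over 50% of their 31-mers, a cubic fit on GC content and length removed, and only transcripts with the stem-loop in their last 100 bases. No column of another series was present.

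All measured members could be named; up to 5 genes were named from each other list, those with the most counts or farthest from a ratio of 1, besides SLBP, LSM11, ERI1, DAXX, ATRX, HIRA, CHAF1B, MCM2, UBN1 and ANP32E, named for their roles or as the only ones called. The members and lists were chosen with earlier results of these data known.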

Additional observations from a re-analysis of the deposited data

How the results depend on the processing

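No paired analysis was possible because each protein had 1 library. DESeq2 size factors and a prior count of 2 kept the call of all 23 measured members in each comparison, and removing the fit on GC content and length kept 13 for wild type over GST, 19 for Ala mutant over GST and 17 for Ala mutant over wild type. With total counts, the all-gene median moved by -0.14 for Ala mutant over GST and -0.17 for Ala mutant over wild type, and totals without mitochondrial and the most abundant genes by 0.11, -0.21 and -0.32 for wild type over GST and these 2; the log2 ratio of H2AFV for Ala mutant over wild type (not called) was -0.07 under these reduced totals. The cause of the changes below was not tested, except that a higher minimum, leaving out shared sequence and the stem-loop requirement test fewer members (3, 9 and 3 of 13 replication-dependent genes). For wild type over GST, replication-dependent genes called higher (2) became 1 at a minimum of 100 counts, 5 with the GC fit removed and 0 with stem-loop transcripts only; those called lower (5) became 1, 2 and 2, and 2 without shared sequence; variant genes called higher (2) became 1 with the GC fit removed. For Ala mutant over GST, replication-dependent genes called higher (5) became 9 with no minimum, 0 at 100 counts, 1 without shared sequence, 2 with the GC fit removed and 3 with stem-loop transcripts only, where the median (0.49) became 1.93; the 1 variant gene called higher became 0 with trimmed totals, with TPM and with the GC fit removed. For Ala mutant over wild type, replication-dependent genes called higher (6) became 18 with no minimum, 1 at 100 counts, 2 without shared sequence and 3 with stem-loop transcripts only; those called lower (3) became 1 at 100 counts and 0 with stem-loop transcripts only; variant genes called lower (2) became 1 with the GC fit removed. With the GC fit removed, HIST1H2AI for Ala mutant over wild type turned to -0.81 and H2AFX for wild type over GST to 0.055. Without mitochondrial and the most abundant genes, replication-dependent genes took 0.00732%, 0.00619% and 0.00633% and variant genes 0.329%, 0.468% and 0.356% of the Ala, wild-type and GST libraries. The sums by transcript form had alternatives chosen after seeing the data. The compact sum was -2.02 for wild type over GST without HIST1H1C; for Ala mutant over GST it was 0.37 with trimmed totals, 0.39 at a limit of 150 noncoding bases and 1.61 without HIST1H1C. The extended sum was 0.69 for wild type over GST without HIST1H2AC, 0.46 for Ala mutant over GST at the limit of 150, and for Ala mutant over wild type -1.56 with trimmed totals, -0.66 at the limit of 150 and -0.60 without HIST1H2AC. Members with few counts, such as HIST1H2BC with 2 in the wild-type library, have intervals of several log2 units, and no interval covers the spread between pull-downs.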
